A study of Mus musculus with 12 samples.

Results

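The heat shock proteins and the DnaJ (J domain) proteins are molecular chaperones, and their messenger RNAs were examined in the myocardium, the muscle of the heart. Genes were taken by symbol: 88 symbols in the deposited table began with Hsp or Dnaj, and leaving out 13 pseudogene symbols and Hspg2, which encodes a basement membrane proteoglycan, gave 74 genes (29 Hsp and 45 Dnaj, 341 transcript rows) of 33641 symbols. Of the 74, 64 reached 1 TPM in at least 3 of 12 libraries and were tested. TPM is the share of a library that a transcript takes after division by its length, scaled so that each library sums to 1000000. The 10 genes below that limit were Hspb9, Hspbap1, Dnajb3, Dnajb7, Dnajb8, Dnajb13, Dnajc5b, Dnajc5g, Dnajc6 and Dnajc22, and they enter no count below.

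The study crossed an operation with a drug. Male wild-type C57BL/6 mice had a sham operation or a myocardial infarction (MI), and from 2 weeks after surgery received vehicle or the synthetic glucocorticoid prednisone, with 3 mice in each of the 4 groups: sham vehicle, sham prednisone, MI vehicle and MI prednisone. Prednisone was injected intraperitoneally once a week for 6 weeks at 1 mg/kg at the start of the light phase, in saline buffer from a DMSO stock. The labels give an age of about 10 weeks for the injected mice and about 16 weeks for the samples, and the myocardium of each mouse was collected 24 hours after its final dose. They do not say which part of an infarcted heart was sampled. Each group enters 2 of the 4 pairwise comparisons below, so those comparisons share mice and are not independent.

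HSP70 and HSP90 proteins bind and release unfolded client proteins in cycles of ATP hydrolysis. J proteins hand clients to HSP70 and start its ATPase, HSP110 proteins exchange its nucleotide, and small heat shock proteins hold unfolded clients without ATP, which matters in muscle, where actin and desmin filaments are under load. The cytosolic stress-inducible members are switched on by heat shock factor 1 through repeated GAA blocks in their promoters, and the endoplasmic reticulum members by the unfolded protein response. The same HSP70 and HSP90 machinery keeps the glucocorticoid receptor able to bind hormone.

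Promoter windows from RefSeq (GRCm38.p6), running from 250 bases before to 50 bases after a start site, were present for 60 of the 74 genes (77 windows) and for 32851 starts in all. Of the first 4, Hsph1, Hspa1a and Hspa1b are among the 6 genes with the expression pattern that follows. Hspe1 is shown because it shares its promoter with Hspd1. Capitals mark 2 adjoining heat shock element blocks, GAANNTTC or TTCNNGAA, each of which reads the same on both strands. Overlapping matches are joined into 1 run. Of the other genes with that expression pattern, Dnaja1 also had such a match. None was found for Hsp90aa1 or Dnajb1, where a gene without a window could not be searched.

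Hsph1: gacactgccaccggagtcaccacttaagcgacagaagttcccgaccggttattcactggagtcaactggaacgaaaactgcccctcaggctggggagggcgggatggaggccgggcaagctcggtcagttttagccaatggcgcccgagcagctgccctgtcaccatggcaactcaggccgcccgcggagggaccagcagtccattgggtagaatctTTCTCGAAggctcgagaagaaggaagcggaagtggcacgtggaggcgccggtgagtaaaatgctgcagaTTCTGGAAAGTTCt
Hspa1a: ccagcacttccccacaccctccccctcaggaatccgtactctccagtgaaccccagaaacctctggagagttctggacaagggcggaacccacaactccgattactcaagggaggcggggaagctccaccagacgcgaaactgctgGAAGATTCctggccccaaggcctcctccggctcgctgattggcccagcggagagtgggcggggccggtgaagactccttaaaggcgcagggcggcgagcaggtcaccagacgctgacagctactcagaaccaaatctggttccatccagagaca
Hspa1b: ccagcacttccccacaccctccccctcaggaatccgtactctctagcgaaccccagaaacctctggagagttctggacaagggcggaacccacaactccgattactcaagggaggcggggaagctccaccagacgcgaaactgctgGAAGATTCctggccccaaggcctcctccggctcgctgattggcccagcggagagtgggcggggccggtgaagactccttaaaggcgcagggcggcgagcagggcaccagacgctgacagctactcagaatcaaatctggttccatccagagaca
Hspe1: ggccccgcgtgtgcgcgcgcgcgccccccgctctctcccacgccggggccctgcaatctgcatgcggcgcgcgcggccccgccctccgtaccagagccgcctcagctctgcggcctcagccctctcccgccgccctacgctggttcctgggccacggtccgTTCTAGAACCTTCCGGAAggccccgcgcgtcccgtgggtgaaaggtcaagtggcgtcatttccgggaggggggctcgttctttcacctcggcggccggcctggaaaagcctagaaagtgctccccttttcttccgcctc

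The Hsph1 window lies at chr5:149636287-149636586 (minus strand), Hspa1a at chr17:34972107-34972406 (minus), Hspa1b at chr17:34959189-34959488 (minus) and Hspe1 at chr1:55087898-55088197 (plus). The Hspa1a and Hspa1b windows were identical at 296 of 300 positions, so reads of these paralogs are hard to assign and their separate values are uncertain. In Hsph1 the runs began 33 bases before and 36 bases after the first transcribed base of the window, and in Hspa1a and Hspa1b 104 bases before it. A run of 3 adjoining blocks (GAANNTTCNNGAA or its reverse complement TTCNNGAANNTTC) occurred in 0.603% of all windows and in 6 of the 77 chaperone windows, those of Hsph1, Hspe1, Hspd1 and Dnajb6. The pair of blocks occurred in 15.1% of all windows and in 18 of 77 chaperone windows (23.4%), belonging to 16 genes. Hspd1 and Hspe1 are transcribed away from each other on chromosome 1, and an Hspd1 window shares 285 of its 300 bases with that of Hspe1, so 1 sequence stands for both.

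The other 3 windows belong to chaperones of the endoplasmic reticulum and are shown with the endoplasmic reticulum stress response element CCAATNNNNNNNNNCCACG, or its reverse complement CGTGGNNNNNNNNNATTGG, in capitals.

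Hspa5: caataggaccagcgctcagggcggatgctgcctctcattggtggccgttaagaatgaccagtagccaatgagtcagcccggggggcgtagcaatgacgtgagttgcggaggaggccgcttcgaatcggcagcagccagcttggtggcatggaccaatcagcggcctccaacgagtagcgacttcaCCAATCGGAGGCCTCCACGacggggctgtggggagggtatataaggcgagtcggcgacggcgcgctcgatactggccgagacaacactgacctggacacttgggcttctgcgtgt
Hsp90b1: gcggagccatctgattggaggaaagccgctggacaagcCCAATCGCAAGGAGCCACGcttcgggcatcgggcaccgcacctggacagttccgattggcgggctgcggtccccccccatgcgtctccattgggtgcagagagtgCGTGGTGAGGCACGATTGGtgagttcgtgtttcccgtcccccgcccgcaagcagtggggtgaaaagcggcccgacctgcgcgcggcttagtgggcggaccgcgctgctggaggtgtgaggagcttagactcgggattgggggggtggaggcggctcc
Dnajc3: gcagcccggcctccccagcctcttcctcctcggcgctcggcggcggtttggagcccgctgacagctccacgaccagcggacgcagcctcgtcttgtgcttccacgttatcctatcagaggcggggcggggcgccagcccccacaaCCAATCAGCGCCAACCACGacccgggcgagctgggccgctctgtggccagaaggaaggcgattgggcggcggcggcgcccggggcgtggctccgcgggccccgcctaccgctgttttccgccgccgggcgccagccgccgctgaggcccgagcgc

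They lie at chr2:34771840-34772139 (plus), chr10:86705395-86705694 (minus) and chr14:118937682-118937981 (plus). The element began 65 bases before the start in Hspa5, 105 bases before it in Dnajc3, and at 212 and 107 bases before it in Hsp90b1, once on each strand. These were the chaperone genes with the element, which occurred in 0.119% of all windows. A match describes letters in a window and does not show that a factor was bound.

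The 74 chaperone genes took between 0.411% and 0.601% of a library's TPM. The libraries differed in scale: the median gene of MI vehicle replicate 3 stood 0.74 above the sham vehicle mean on the log2(TPM + 1) scale and between -0.07 and 0.25 in the other 8 libraries outside sham vehicle, and that library also had the most genes at 1 TPM or more (14307, against 11690 to 12772). Mitochondrially encoded RNA took 23.1% of TPM in that library and 24.7% and 21.6% in MI prednisone replicates 1 and 2, against 32.4% to 42.0% in the other 9, and its part in the comparisons that hold these libraries was not tested. Counts of called chaperones are therefore given as deposited and after median-ratio rescaling, and a change with no scale named is as deposited. Rescaling divides each library by the median ratio of its genes to their geometric mean. The median gene moved by 0.39 from sham to MI in vehicle mice, -0.06 from sham to MI under prednisone, -0.41 with prednisone in MI, and 0.07 with prednisone in sham. In the MI prednisone libraries, a gene's deviation from the sham vehicle mean also fell with transcript length (Spearman's rho across 11894 genes -0.38, -0.40 and -0.25, where genes are not independent observations), against -0.12 to 0.24 in the other 9. Cell type markers moved too: the summed TPM of 6 fibroblast markers was 367 to 495 in sham vehicle mice, 416 to 496 in sham prednisone mice, 860 to 1120 in MI vehicle and 317 to 552 in MI prednisone, and that of 6 cardiomyocyte markers 20100 to 21700, 20800 to 23800, 14700 to 18500 and 18800 to 20500. No marker was at 0 in any group. In bulk tissue, fewer cells of a type and less RNA per cell cannot be told apart. The summed TPM of 5 lymphocyte markers was 1.73 to 15.7 in the 9 libraries outside MI vehicle and 6.36 to 229 within it. No batch is named in the labels.

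Hspa1a, Hspa1b, Hsph1, Hsp90aa1, Dnaja1 and Dnajb1, 6 chaperone genes of the cytosol, had their lowest values in the untreated, uninjured hearts. Hspa1a, which encodes an inducible HSP70, was at 0.917, 1.62 and 1.44 TPM in sham vehicle mice, 4.08, 19.3 and 3.94 in sham prednisone mice, 2.93, 3.47 and 4.80 in MI vehicle, and 5.20, 6.49 and 3.91 in MI prednisone. Hspa1b, its near-identical neighbour, was at 1.54, 1.70 and 0.998 TPM in sham vehicle mice, 4.05, 20.6 and 3.3 in sham prednisone mice, 4.03, 4.27 and 5.76 in MI vehicle, and 4.47, 7.24 and 3.78 in MI prednisone. All 9 libraries of the other groups lay above the 3 sham vehicle libraries for both genes, and sham prednisone replicate 2 was the highest of all 12.

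**Figure D1:**
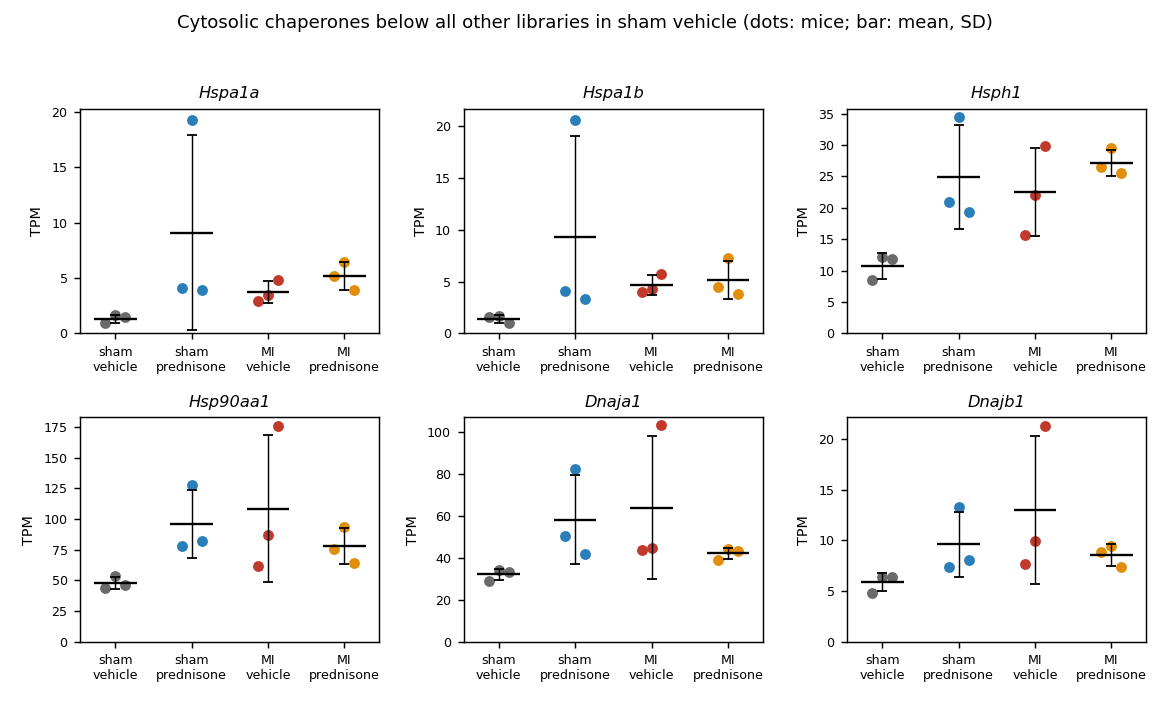
TPM of 6 cytosolic chaperone genes (y axis, linear, from 0) in the 4 groups (x axis), with 1 dot per mouse and bars for mean and SD (n = 3). The 3 sham vehicle dots lie below the 9 other dots in each panel, and sham prednisone replicate 2 or MI vehicle replicate 3 is the highest.

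Hsph1, the inducible HSP110 that recharges HSP70, was at 8.43, 12.1 and 11.8 TPM in sham vehicle mice, 20.9, 34.4 and 19.3 in sham prednisone mice, 15.7, 22.0 and 29.8 in MI vehicle, and 26.5, 29.5 and 25.5 in MI prednisone. Hsp90aa1, the inducible HSP90, was at 43.4 to 53.2 TPM in sham vehicle mice, 77.7, 128 and 82.4 in sham prednisone mice, 61.8, 87.3 and 176 in MI vehicle, and 75.4, 93.4 and 64.5 in MI prednisone. The J proteins Dnaja1 and Dnajb1, which feed clients to cytosolic HSP70, were at 29.1 to 34.3 and 4.83 to 6.42 TPM in sham vehicle and at 39.0 to 103 and 7.37 to 21.3 TPM in the other libraries. Each of these 4 genes was again below all 9 other libraries in sham vehicle. Other cytosolic members were not: the J protein Dnajb4 was at 30.7 to 35.3 TPM in sham vehicle and at 28.9, 21.4 and 32.9 in MI prednisone.

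This arrangement, all 9 other libraries above the 3 sham vehicle libraries both as deposited and after rescaling, held for 6 of the 64 tested chaperones (9.38%) and for 0.707% of all 13158 genes tested. The 6 are Hspa1a, Hspa1b, Hsph1, Hsp90aa1, Dnaja1 and Dnajb1. As deposited only, it held for 13 of 64 (20.3%) against 2.61% of all genes, the added genes being Hspa1l, Hsp90ab1, Hsp90b1, Dnajb11, Hspb1, Hspb8 and Hspbp1. The arrangement was chosen after the values were seen. Leaving out MI vehicle replicate 3, or sham prednisone replicate 2, only loosens the condition, so no gene could drop out of it. The chaperones stayed at 6, and the share of all genes became 0.935% and 0.980%.

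Within a library, each inducible member was divided by a constitutive partner, a ratio that the scale of the library leaves unaltered. The sum of Hspa1a and Hspa1b was 0.445%, 0.569% and 0.400% of Hspa8 in sham vehicle mice, 1.03%, 3.97% and 0.920% in sham prednisone mice, 1.16%, 0.981% and 1.05% in MI vehicle, and 1.20%, 1.67% and 0.975% in MI prednisone. Hsp90aa1 was 12.3% to 14.6% of Hsp90ab1 in sham vehicle mice, 17.3% to 24.0% in sham prednisone mice, 14.8% to 28% in MI vehicle and 14.2% to 21.1% in MI prednisone. For the HSP70 ratio the sham vehicle libraries lay below all others, and for the HSP90 ratio 1 MI prednisone library (14.2%) lay within the sham vehicle range.

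Hsph1 relative to Hspa4, an HSP110 of the same family, was 22.4% to 32.9% in sham vehicle mice, 39.8% to 85.6% in sham prednisone mice, 40.4% to 47.8% in MI vehicle and 63.1% to 86.1% in MI prednisone. For these 3 ratios, both MI vehicle and sham prednisone stood apart from sham vehicle with the smallest p that 3 mice against 3 allow (exact two-sided permutation test, p = 0.1, Benjamini-Hochberg adjusted p = 0.2 over 16 comparisons of 4 ratios). No comparison of this size can pass 0.05. Part of the Hsph1 signal in MI prednisone was on non-coding rows, 40.7%, 53.0% and 40.9% of the gene's TPM, against 1.25% to 23.6% in the other libraries.

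**Figure D2:**
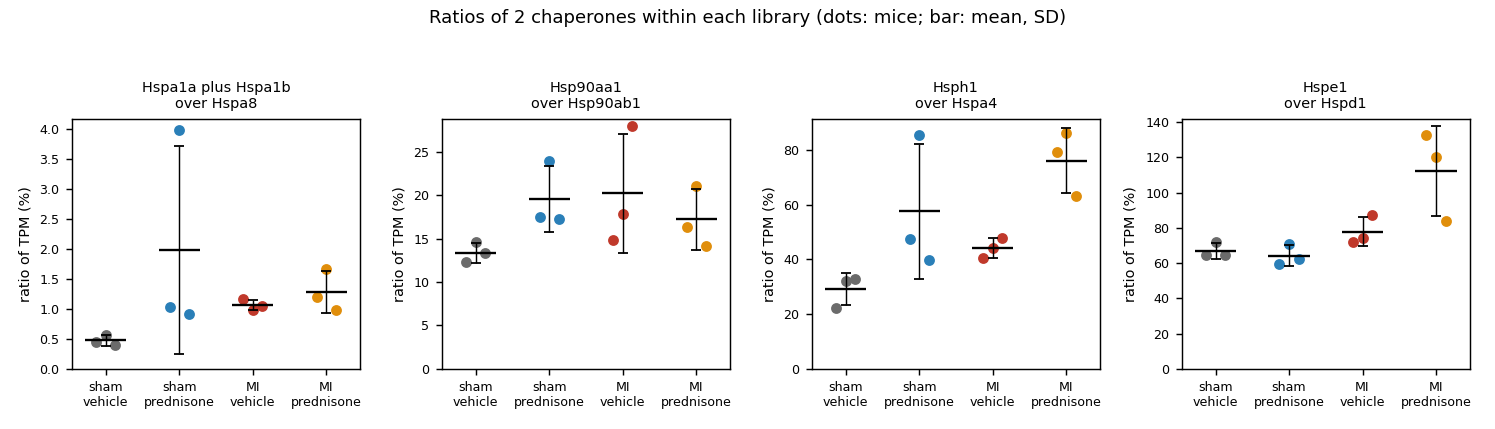
Ratio of 2 chaperones within each library, in percent (y axis, linear, from 0), in the 4 groups (x axis), with 1 dot per mouse and bars for mean and SD (n = 3). The HSP70 and HSP110 ratios are lowest in sham vehicle mice, and Hspe1 over Hspd1 is highest in MI prednisone (83.9% to 133%, with 1 MI vehicle library at 87.1%).

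Prednisone in sham hearts asks what the drug does without injury. No chaperone passed limma's test at an adjusted p under 0.05 (0 of 64 in either direction, against 0.0532% of all genes higher and 0.0608% lower, and after rescaling 0.0532% and 0.0684%). At an unadjusted limma p under 0.05, 17 chaperones were higher and 0 lower, against 2.90% and 0.669% of all genes. In 30 of 64 chaperones the 3 prednisone mice lay above the 3 vehicle mice and in 0 below them, against 15.6% and 2.58% of all genes. After rescaling these were 17 and 4 of 64, against 8.44% and 8.12%. The median log2 difference of the 64 was 0.19, or 0.11 beyond the median gene.

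Hsph1 differed by 1.11 on the log2 scale (SE 0.25, limma adjusted p = 0.469; 1.03 after rescaling). Hspa1a differed by 1.79 (SE 0.45, adjusted p = 0.635; 1.76 after rescaling) and Hspa1b by 1.70 (SE 0.49, adjusted p = 0.904; 1.66 after rescaling), both with the high value of replicate 2. The constitutive Hspa8 was at 552, 583 and 609 TPM in vehicle and 792, 1010 and 787 TPM in prednisone hearts, a log2 difference of 0.56 (SE 0.16, limma adjusted p = 0.930; 0.47 after rescaling). Its groups did not overlap.

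Among the chaperones of the endoplasmic reticulum, the genes with the stress response element were all higher in prednisone-treated than in vehicle-treated sham mice. Hspa5, the HSP70 of that compartment also known as BiP, was at 188, 192 and 224 TPM in vehicle and 248, 288 and 281 in prednisone hearts (log2 difference 0.43, SE 0.12, limma adjusted p = 0.786; 0.34 after rescaling). Hsp90b1, its HSP90, was at 91.9 to 97.4 TPM in vehicle and 115 to 132 in prednisone hearts, and Dnajc3, a J protein that helps Hspa5, at 8.98 to 10.7 and 11.9 to 13.6 TPM. The groups did not overlap in any of the 3, as in 22 of the 49 other tested chaperones with a window, and none passed the adjusted test. Of 15 tested genes with a pair of heat shock element blocks, 10 had groups that did not overlap with prednisone above, as did 15 of 37 without. The median log2 differences were 0.25 and 0.21. For the run of 3 blocks these were 2 of 4 genes with it and 23 of 48 without, with medians of 0.22 and 0.21. All are as deposited, and Hspa1a and Hspa1b, like Hspd1 and Hspe1, count separately despite near-identical or shared windows.

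**Figure D3:**
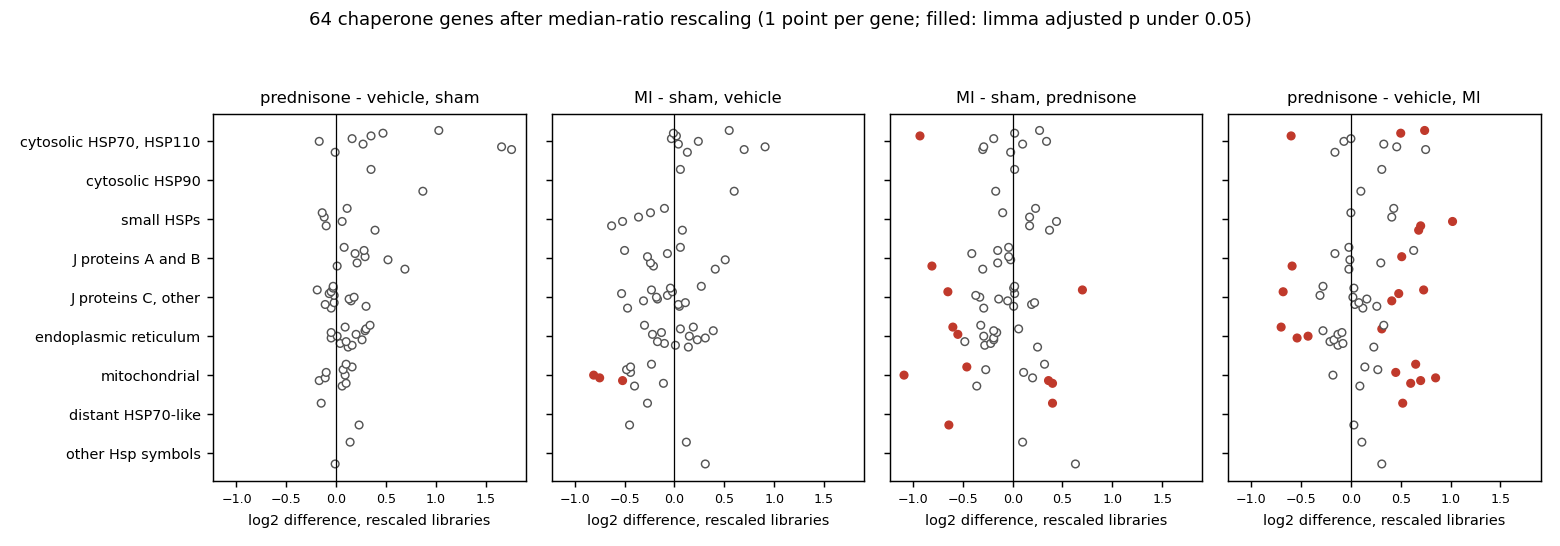
Log2 differences of 64 chaperone genes after median-ratio rescaling (x axis) by role (y axis), with 1 point per gene and 1 panel per comparison. Filled points passed limma's test at an adjusted p under 0.05. None is filled for prednisone in sham hearts, 3 mitochondrial points are filled below 0 for infarction in vehicle hearts, and points are filled on both sides of 0 in the panels that contain MI prednisone.

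Infarction against sham in vehicle hearts asks what injury changed without the drug. As deposited, 12 of 64 chaperones rose and 0 fell by limma (15.1% and 0.904% of all genes did), with 28 higher and 2 lower at an unadjusted p under 0.05 (39.9% and 2.33% of all genes). The MI mice lay above all sham mice in 29 chaperones and below them in 2 (40.8% and 4.17% of all genes), and after rescaling in 10 and 12 (15.7% and 18.3%). The median change of the 64, 0.35, was close to the 0.39 of the median gene, and after rescaling 0 rose and 3 fell (3.72% of all genes each way). None of the 12 passed after rescaling. The count was unstable: leaving out MI vehicle replicate 1, 2 or 3 gave 30, 3 and 1 calls, sham vehicle replicate 1, 2 or 3 gave 0, 3 and 0, sham prednisone replicate 1, 2 or 3 gave 5, 6 and 6, and MI prednisone replicate 1 gave 6. All 6 fibroblast and all 5 macrophage markers were called higher in the same comparison, and 2 of 6 cardiomyocyte markers lower, whose part in these results was not tested.

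The endoplasmic reticulum group held 6 of the 12 rises, of its 13 members, where 15.1% of all genes rose. Dnajc10, a disulfide reductase with a J domain, rose from 11.2 ± 1.66 to 19.4 ± 4.72 TPM (SD, n = 3 each; log2 change 0.72, SE 0.17, limma adjusted p = 0.0249; 0.31 after rescaling, adjusted p = 0.0779). Dnajc3 rose from 9.63 ± 0.925 to 18.6 ± 8.37 TPM (log2 change 0.81), where MI vehicle replicate 3 at 28.1 TPM stood above the other 2 mice at 12.4 and 15.4. Hspa13, Dnajb11, Dnajc1 and Hsp90b1 rose by 0.57, 0.57, 0.64 and 0.50, but Hspa5 did not pass, at 222 ± 23.8 TPM against 201 ± 19.5 in sham (log2 difference 0.14, limma adjusted p = 0.334). After rescaling none of these 6 passed.

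Of the cytosolic members, Hsph1 rose by 0.97 (SE 0.25, limma adjusted p = 0.0302; 0.55 after rescaling, adjusted p = 0.120). Hsp90aa1 just missed the threshold (log2 difference 1.03, SE 0.32, limma adjusted p = 0.0502), with MI vehicle replicate 3 at 176 TPM and the other 2 MI vehicle mice at 61.8 and 87.3. Hsp90ab1, the constitutive HSP90, rose from 355 ± 7.15 to 511 ± 108 TPM (log2 change 0.50, limma adjusted p = 0.0327; 0.06 after rescaling). Hspa1a, Hspa1b, Dnaja1 and Dnajb1 differed by 1.02, 1.24, 0.85 and 0.91, with limma adjusted p between 0.0627 and 0.110, and by 0.70, 0.91, 0.41 and 0.51 after rescaling.

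The small heat shock proteins are among the most abundant chaperones of heart muscle. Hspb1 (HSP27) was at 150, 176 and 193 TPM in sham vehicle and 215, 272 and 258 in MI vehicle, and rose by 0.52 (SE 0.15, limma adjusted p = 0.0436; 0.08 after rescaling). Hspb8 (HSP22), the partner of the cochaperone Bag3, rose from 234 ± 5.82 to 297 ± 24.0 TPM (log2 change 0.34, limma adjusted p = 0.0351), and its sign turned after rescaling (-0.10). Hspb6 (HSP20), at 422 to 474 TPM in sham and 437 to 546 in MI, and the muscle protein Hspb7, at 591 to 688 and 647 to 890, overlapped between the groups and did not pass.

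The 9 mitochondrial members had a median difference of -0.02, or -0.41 relative to the median gene. As deposited none of them passed limma's test, while 2, Dnajc19 and Dnajc28, were lower at an unadjusted p under 0.05. Dnajc19 was at 67.8, 77.0 and 69.0 TPM in sham and 51.0, 61.3 and 58.6 in MI hearts (log2 difference -0.32, limma adjusted p = 0.0792). A retained-intron row held 11.8, 0.0 and 7.18 TPM of it in sham vehicle and at most 0.00967 in MI vehicle. Over protein-coding rows alone the groups overlapped, at 56, 77 and 61.8 TPM in sham vehicle and 51, 61.3 and 58.6 in MI vehicle. The rescaled values that follow use the sum of all rows. After rescaling, Dnajc19, Dnajc15 and Dnajc28 fell by 0.75, 0.52 and 0.81 (limma adjusted p = 0.0208, 0.0252 and 0.0456), and 8 of 9 members had MI mice below all sham mice, against 18.3% of all genes. On the same scale all 6 cardiomyocyte markers had MI mice below all sham mice, with a median of -0.90 against -0.44 for the 9 mitochondrial members, and their part in this result was not tested. Dnajc19 and Dnajc15 belong to the motor that draws proteins through the inner mitochondrial membrane. Hspd1 (HSP60) was level as deposited, at 149 ± 2.26 in sham and 149 ± 13.4 TPM in MI.

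Prednisone against vehicle in infarcted hearts asks what the drug changed after injury. As deposited, 2 of 64 chaperones rose and 20 fell by limma (2.50% and 34.9% of all genes). After rescaling 16 rose and 6 fell (14.6% and 14.2% of all genes), and 8 of the 22 were called the same way on both scales. The prednisone mice lay above all vehicle mice in 2 chaperones and below them in 25 (3.59% and 42.6% of all genes), and after rescaling in 20 and 5 (19.0% and 19.1%). The 8 shared calls were the rises of Hspb3 and Dnajc19 and the falls of Hspa4l, Hspa13, Dnajc10, Dnajc14, Dnaja2 and Dnajc5. Retained-intron rows held part of the changes of Dnajc19 and Dnaja2, as given below. A row annotated for nonsense-mediated decay held part of the fall of Dnajc5. In this comparison 5 of 6 fibroblast markers and 3 of 5 macrophage markers were called lower, also after rescaling, and 2 of 6 cardiomyocyte and 3 of 4 atrial markers higher. Their part in the chaperone results was not tested.

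Hspa4l, an HSP110 relative of Hspa4, was at 11.1, 15.1 and 13.2 TPM in sham vehicle mice, 17.2, 18.9 and 18 in sham prednisone mice, 15.4, 17.3 and 21.7 in MI vehicle, and 6.60, 8.20 and 10.6 in MI prednisone. The MI prednisone libraries lay below all others. With prednisone in MI it fell by 1.02 on the log2 scale (SE 0.18, limma adjusted p = 0.00207) and by 0.60 after rescaling (limma adjusted p = 0.0154).

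Dnajc5, the cysteine string protein that guards vesicle fusion proteins, was at 15.4 to 20.0 TPM in sham vehicle mice, 16.3 to 18.5 in sham prednisone mice, 18.2, 21.4 and 31.5 in MI vehicle, and 9.02, 9.66 and 11.8 in MI prednisone. It fell by 1.12 (SE 0.19, limma adjusted p = 0.00187) and by 0.68 after rescaling (limma adjusted p = 0.00298). Its MI prednisone libraries were again the lowest of the 12. A row annotated for nonsense-mediated decay was at 6.46, 7.2 and 12.4 TPM in MI vehicle and 1.51, 1.92 and 3.1 in MI prednisone. Over protein-coding rows alone, Dnajc5 went from 14.9 ± 3.74 to 7.8 ± 0.599 TPM between these groups.

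Hspa13, an HSP70-like protein of the endoplasmic reticulum, was at 5.57, 5.98 and 8.15 TPM in MI vehicle and 2.75, 2.05 and 2.87 in MI prednisone, against 3.66 to 4.81 in the 6 sham libraries. It fell by 1.08 (SE 0.16, limma adjusted p = 0.00119) and by 0.70 after rescaling (limma adjusted p = 0.0033). Dnajc10 fell by 0.97 (SE 0.17, limma adjusted p = 0.00257; by 0.54 after rescaling) from 19.4 ± 4.72 to 9.22 ± 0.362 TPM, against 11.2 ± 1.66 in sham vehicle. Dnajc14, a membrane J protein of the same compartment, fell by 0.87, and by 0.43 after rescaling.

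**Figure D4:**
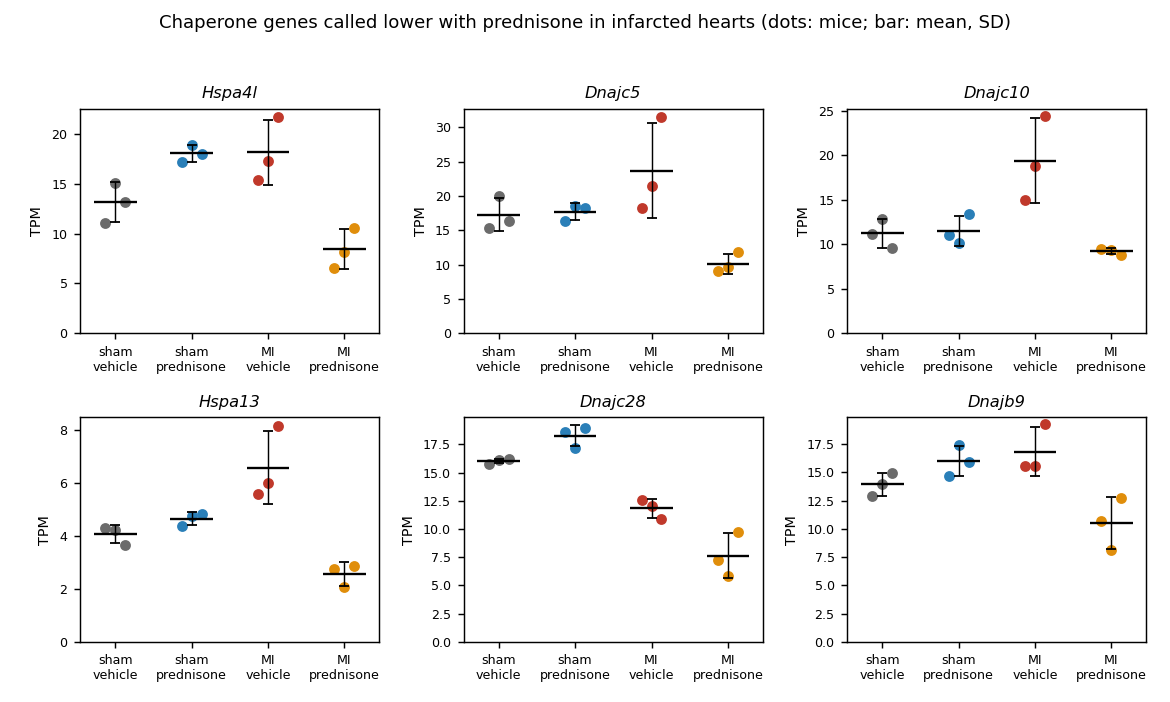
TPM of 6 chaperone genes called lower with prednisone in infarcted hearts (y axis, linear, from 0) in the 4 groups (x axis), with 1 dot per mouse and bars for mean and SD (n = 3). Hspa4l, Dnajc5, Hspa13, Dnajc10, Dnajc28 and Dnajb9 all have their 3 MI prednisone dots below the 9 others; after rescaling Dnajc28 and Dnajb9 are no longer called.

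The endoplasmic reticulum group as a whole had 9 of 13 members lower with prednisone in MI as deposited, and 3 lower and 1 higher after rescaling. Of all genes, 34.9% were lower as deposited, and 14.2% lower and 14.6% higher after rescaling. Hsp90b1 did not pass as deposited (log2 difference -0.15, limma adjusted p = 0.416) and was called higher after rescaling (0.31, limma adjusted p = 0.0399), so its direction depends on the scale. Hspa5 did not pass on either scale, at 203 ± 19.9 TPM in MI prednisone. Dnajb9, a J protein that restrains the stress sensor Ire1, fell from 16.8 ± 2.11 to 10.5 ± 2.27 TPM (log2 change -0.64, limma adjusted p = 0.00878), but by only 0.21 after rescaling (adjusted p = 0.370). Dnajc3 fell by 0.72 as deposited and did not pass after rescaling.

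Among the small heat shock proteins, Hspb3, which forms a complex with Hspb2 in muscle, was at 9.45 to 9.97 TPM in sham vehicle mice, 10.3 to 11.7 in sham prednisone mice, 10.1, 8.51 and 7.70 in MI vehicle, and 13.9, 15.0 and 12.9 in MI prednisone. It rose with prednisone in MI by 0.62 (SE 0.12, limma adjusted p = 0.00385) and by 1.02 after rescaling (limma adjusted p = 0.00360). Its MI prednisone libraries were the highest of the 12. Hspb1 and Hspb2 passed only after rescaling, at 0.68 and 0.70. Hspb7 fell by 0.46 (limma adjusted p = 0.0353), and its rescaled difference was 0.00. At 745 and 781 bases, Hspb2 and Hspb3 are short messages; in genes under 1000 bases the median difference of all genes was -0.05, and in genes over 4000 bases -0.67.

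Mitochondrial members split in MI prednisone hearts. Hspd1 (HSP60), which folds imported proteins in a barrel, and Hspe1 (HSP10), its lid, are read from the promoter region shown above. Hspd1 was at 147, 149 and 152 TPM in sham vehicle mice, 171, 177 and 184 in sham prednisone mice, 147, 137 and 163 in MI vehicle, and 114, 113 and 133 in MI prednisone. Hspe1 was at 94.7 to 107, 102 to 125, 102 to 142 and 111 to 152 TPM in the same groups. Hspd1 was lowest in MI prednisone and Hspe1 was not.

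Hspe1 was 64.4%, 72.0% and 64.4% of Hspd1 in sham vehicle mice, 59.5%, 70.8% and 62.6% in sham prednisone mice, 71.9%, 74.4% and 87.1% in MI vehicle, and 133%, 120% and 83.9% in MI prednisone. MI prednisone exceeded sham prednisone in every mouse (exact two-sided permutation p = 0.1, adjusted p = 0.2), while 1 MI vehicle library lay above 1 MI prednisone library (exact permutation p = 0.2, adjusted p = 0.320). The mean transcript length was 2230 bases for Hspd1 and 775 for Hspe1, and the part of the length trend in this ratio was not tested. With prednisone in MI, Hspd1 fell by 0.31 as deposited (limma adjusted p = 0.0257) and stood 0.14 higher, not called, after rescaling.

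Dnajc19 rose with prednisone in MI to 71.5, 87.8 and 67.8 TPM from 51.0, 61.3 and 58.6 (log2 change 0.40, SE 0.12, limma adjusted p = 0.0255; 0.85 after rescaling, adjusted p = 0.00241). Over protein-coding rows alone the difference was 0.01, since a retained-intron row of 419 bases held 15.8, 16.1 and 20.8 TPM in MI prednisone and 0.00 to 11.8 elsewhere. Loss of Dnajc19 is a known cause of human dilated cardiomyopathy. Dnajc28 was at 15.8 to 16.2 TPM in sham vehicle mice, 17.2 to 19.0 in sham prednisone mice, 12.6, 12 and 10.9 in MI vehicle, and 7.27, 5.86 and 9.77 in MI prednisone. Both infarcted groups were below both sham groups. Over protein-coding rows alone the 2 infarcted groups overlapped, at 8.28, 8.69 and 7.43 TPM in MI vehicle and 7.05, 5.68 and 8.73 in MI prednisone.

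Infarction against sham under prednisone compares the 2 drug-treated groups. As deposited, 0 of 64 chaperones rose and 12 fell by limma (2.73% and 14.1% of all genes), with 3 higher and 17 lower at an unadjusted p under 0.05 (8.07% and 22.4% of all genes). The MI mice lay above all sham mice in 4 chaperones and below them in 23 (12.9% and 32.2%), and after rescaling in 10 and 15 (24.4% of all genes each way). After rescaling 4 rose and 8 fell (11.7% and 14.3%), and all 8 rescaled falls were among the 12. Dnajc28 fell by 1.18 (SE 0.15, limma adjusted p = 0.00127; 1.09 after rescaling, adjusted p = 0.00651), the largest change of a chaperone in this comparison over the sum of all rows. Part of that fall lay on a row without a GENCODE type, at 5.58, 6.05 and 6.04 TPM in sham prednisone and 0.219, 0.181 and 1.05 in MI prednisone. Hspa4l fell by 1.03, Dnaja2 by 0.92, Dnajc5 by 0.75, Hspa12a by 0.72, Hspa13 by 0.67 and Hspd1 by 0.56, each also called after rescaling. Over protein-coding rows alone, 2 of these calls were lost, with Dnaja2 at -0.27 (limma adjusted p = 0.126) and Dnajc5 at -0.36 (adjusted p = 0.220). Hspa12a could not be tested there, since its row had no GENCODE type. Such a row also held 76.7% of the TPM of Hspa13. In this comparison 3 of 6 cardiomyocyte markers (median of the 6 -0.37) and 2 of 5 endothelial markers were called lower as deposited, and 1 and 0 after rescaling, and their part in the chaperone results was not tested.

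Hspa12a, a distant HSP70 relative, was at 6.78 to 7.35 TPM in sham prednisone and 3.51, 3.83 and 4.43 in MI prednisone. Hspa9 (mortalin, the mitochondrial HSP70) fell from 235 ± 9.5 to 181 ± 15.9 TPM and its J protein partner Dnaja3 from 55.1 ± 3.87 to 40.0 ± 6.21 TPM as deposited (limma adjusted p = 0.0135 and 0.0211), and neither passed after rescaling. Hspa5 fell from 272 ± 21.3 to 203 ± 19.9 TPM (limma adjusted p = 0.0302; 0.146 after rescaling, and 0.227 over protein-coding rows). The count of 12 fell to 6 without sham prednisone replicate 2 or 3 and to 7 without MI prednisone replicate 1 or 2, and was 19 without MI vehicle replicate 3.

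Transcript rows show where a gene's change lay. Dnaja2, a cytosolic J protein, fell from 117 ± 8.38 to 57.1 ± 11.8 TPM with prednisone in MI (log2 change -1.04, SE 0.13, limma adjusted p = 0.000790). Its coding row of 2919 bases was at 67.0, 76.8 and 72.7 TPM in MI vehicle and 54.0, 44.8 and 59.6 in MI prednisone. A retained-intron row of 507 bases went from 41.7, 40.6 and 52.8 to 0.773, 1.83 and 10.3 TPM. Over protein-coding rows alone, Dnaja2 fell by 0.45 (limma adjusted p = 0.00888). The median gene, over all rows, moved by -0.41 in this comparison, so the coding fall of Dnaja2 was close to it.

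**Figure D5:**
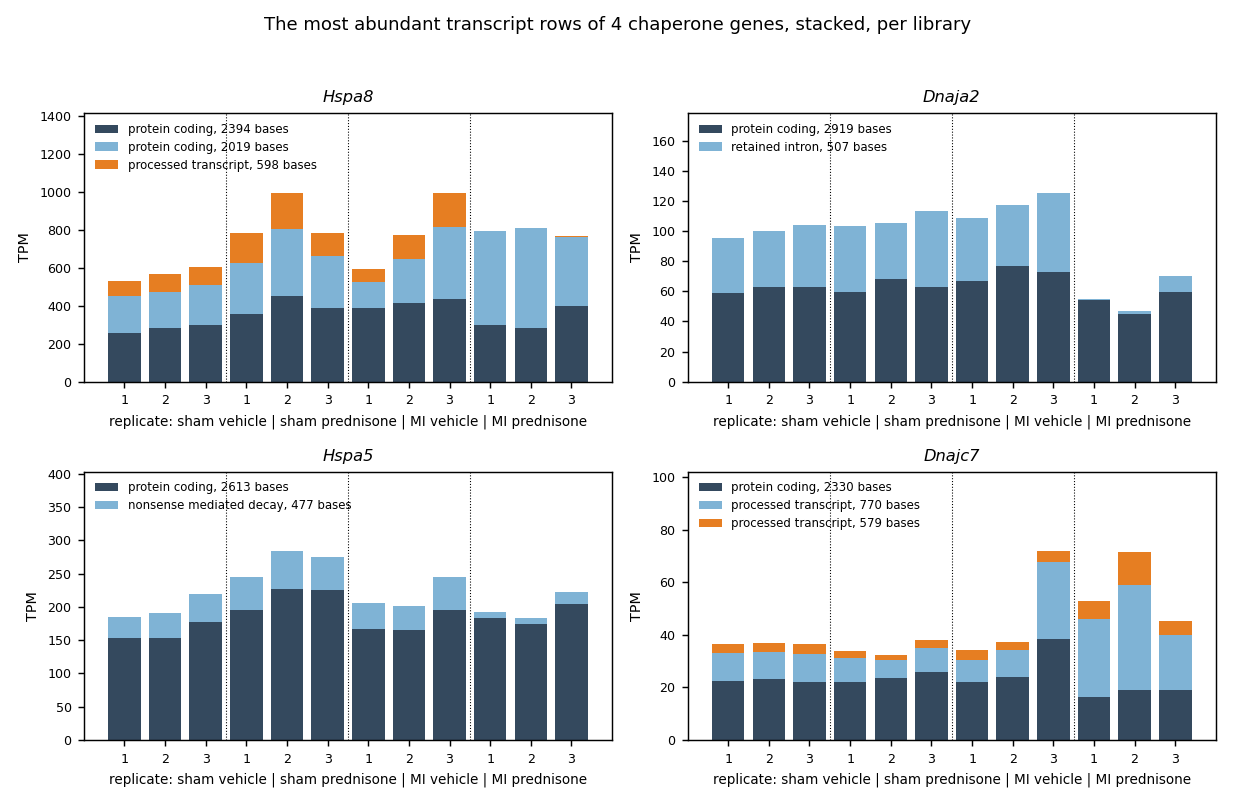
TPM of the most abundant transcript rows of Hspa8, Dnaja2, Hspa5 and Dnajc7 (y axis, linear, from 0), stacked for each of the 12 libraries (x axis), with the transcript type and length in the legend. In the MI prednisone libraries the short rows of Hspa8, Dnaja2 and Hspa5 are near 0 or reduced, while those of Dnajc7 are larger than in the other libraries, except that MI vehicle replicate 3 also has a large one (29.1 TPM).

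In Hspa8, a processed transcript of 598 bases was at 70.0 to 194 TPM in the other 9 libraries and 0.00, 0.00 and 0.409 TPM in MI prednisone, while the gene's sum stayed at 789 to 824 TPM. In Hspa5, a row of 477 bases annotated for nonsense-mediated decay was at 31.2 to 57.1 TPM in the other 9 libraries and 8.99, 7.62 and 16.8 in MI prednisone. In Hspd1, a coding row of 863 bases was at 16.2 to 25.7 TPM elsewhere and 2.08, 1.97 and 5.80 in MI prednisone. How reads were divided between rows of 1 gene is not given in the sources used here.

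Dnajc7, a J protein with tetratricopeptide repeats chosen here after its values were seen, showed rows moving apart. Its coding row of 2330 bases was at 22.0 to 38.5 TPM in the other 9 libraries and 16.2, 19.2 and 19.2 in MI prednisone, while a processed transcript of 579 bases was at 2.21 to 4.30 elsewhere and 6.95, 12.7 and 5.19 in MI prednisone. After rescaling the gene's sum was called higher with prednisone in MI (0.73, limma adjusted p = 0.00612). Its coding rows alone, as deposited, were called lower (-0.53, limma adjusted p = 0.0290), where the median gene over all rows moved by -0.41. These 2 calls are on different scales and cannot be set against each other directly. Of the 97 chaperone rows with a mean of at least 3 TPM, 22 (22.7%) had all MI prednisone libraries below the other 9 and 4 (4.12%) above them, against 21.5% and 4.99% of all such rows.

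The difference between the prednisone effect in infarcted and in sham hearts, the interaction, uses all 4 groups. As deposited, 0 chaperones were higher and 20 lower by limma (0.540% and 20.7% of all genes), with 2 higher and 35 lower at an unadjusted p under 0.05 (1.66% and 36.9%). The interaction of the median gene was -0.48, and after rescaling 5 were higher and 4 lower (5.12% and 4.93%). Hspa4l (-1.46, limma adjusted p = 0.00683), Hspa13 (-1.24, 0.00811), Dnajc5 (-1.16, 0.0149) and Dnajc10 (-1.01, 0.0191) were called lower on both scales. Of the cell type markers, 5 of 6 fibroblast (median -1.33), 3 of 5 macrophage and 3 of 5 endothelial markers were also called lower in the interaction as deposited, and 1, 1 and 0 after rescaling. Their part in the chaperone results was not tested. Single libraries moved the count: it was 4 and 10 without sham vehicle replicates 1 and 3, 11, 8 and 7 without sham prednisone replicates 1, 2 and 3, 34 without MI vehicle replicate 1, and 7 and 11 without MI prednisone replicates 1 and 2.

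Several chaperones passed nowhere. The HSP70 relatives Hspa2 (1.74 to 4.99 TPM), Hspa1l (2.74 to 4.78) and Hspa14 (8.75 to 22.5) passed in no comparison on either scale, although Hspa14 was called lower with prednisone in MI over protein-coding rows (-0.67, limma adjusted p = 0.0226). The same held for Hspb6 and for the J protein Dnajb5 (23.5 to 41.0 TPM). Hspa12b (8.02 to 11.9 TPM) did not pass as deposited. It was called higher after rescaling with infarction under prednisone (0.40), with prednisone in MI (0.52) and in the interaction (0.67), and after length correction in the first 2 of these (0.49 and 0.63). Dnajb6, a J protein that suppresses aggregation in muscle, rose with infarction in vehicle hearts by 0.49 and fell with prednisone in MI by 0.47, and after rescaling its differences were 0.06 and -0.02.

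Correcting each library for transcript length, over the 59 chaperones with a length, gave by limma 0 rises and 2 falls with infarction in vehicle hearts (2.60% and 2.56% of all genes), 3 and 6 with infarction under prednisone (4.90% and 7.84%), 8 and 6 with prednisone in MI (8.98% and 7.69%), none with prednisone in sham (0.0336% and 0.0925%) and none in the interaction (0.933% and 1.17%). Hspa4l, Hspa13, Dnajc10, Dnajc14, Dnaja2 and Dnajc5 kept their falls with prednisone in MI in this fit, at smaller sizes: -0.44, -0.61, -0.39, -0.35, -0.65 and -0.51, against -1.02, -1.08, -0.97, -0.87, -1.04 and -1.12 as deposited. These fits used the sum of all rows of a gene, including the retained-intron row of Dnaja2 and the nonsense-mediated decay row of Dnajc5. With the replicate block added to the length correction, 2 falls were called, those of Hspa13 and Dnajc5.

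The other genes of the folding pathway were counted from lists of cochaperones and folding enzymes. Of 4 tested heat shock factors and regulators, none passed as deposited in any comparison by limma. At an unadjusted limma p under 0.05, 1 was lower with infarction under prednisone and 1 in the interaction (22.4% and 36.9% of all genes). After rescaling, 3 rose with prednisone in MI (14.6% of all genes). Hsf1 was at 11.4 to 12.6 TPM in sham vehicle and 12.8 to 18.2 in the others, as deposited. After rescaling it differed by -0.13 with infarction in vehicle hearts and by 0.11 with prednisone in sham. The groups overlapped in both of these rescaled comparisons. Of 19 tested cochaperones of HSP70 and HSP90, 1 rose with infarction in vehicle hearts (Tomm34), 3 fell with infarction under prednisone and 5 fell with prednisone in MI, where 15.1% of all genes rose in the first comparison and 14.1% and 34.9% fell in the other two. After rescaling 0 rose and 2 fell with infarction in vehicle hearts, 1 rose and 2 fell with infarction under prednisone, and 4 rose and 1 fell with prednisone in MI, so the balance of directions turned with the scale. St13, which steadies HSP70 with its client, fell on both scales in both comparisons. It was at 48.0, 50.6 and 84.0 TPM in MI vehicle, 32.3, 33.9 and 36.8 in MI prednisone and 38.7 to 56.7 in sham (with prednisone in MI, log2 change -0.76, limma adjusted p = 0.00740).

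Chordc1, an HSP90 cochaperone, was at 9.60, 13.4 and 13.3 TPM in sham vehicle mice, 21.6, 21.3 and 18.7 in sham prednisone mice, 12.1, 16.3 and 26.9 in MI vehicle, and 8.42, 7.45 and 13.5 in MI prednisone. It was higher in every sham prednisone mouse than in any sham vehicle mouse, and with infarction under prednisone it fell by 1.03 (limma adjusted p = 0.0249; by 0.94 after rescaling). Of 15 endoplasmic reticulum folding genes, 6 rose with infarction in vehicle hearts as deposited and 1, Pdia4, a protein disulfide isomerase, after rescaling too (log2 change 1.01 as deposited, limma adjusted p = 0.0230). Of these 15, 3 fell with prednisone in MI as deposited and 0 after rescaling, when 4 rose. Of 13 chaperonin and prefoldin genes, 2 fell with prednisone in MI as deposited, and after rescaling 6 rose. Of 8 mitochondrial folding genes, 4 fell with prednisone in MI as deposited, and after rescaling none fell and 1 rose. Of all genes, 15.1% rose with infarction in vehicle hearts as deposited and 3.72% after rescaling. With prednisone in MI, 34.9% of all genes fell as deposited, and after rescaling 14.6% rose and 14.2% fell.

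Cryab, the most abundant small heat shock protein gene and not an Hsp symbol, was at 1270 to 1400 TPM in sham vehicle mice, 1400 to 1610 in sham prednisone mice, 1340 to 1580 in MI vehicle and 1630 to 1820 in MI prednisone. With prednisone in MI its difference was 0.27 (limma adjusted p = 0.0517) as deposited and it rose by 0.73 after rescaling (limma adjusted p = 0.0169). After length correction the difference was 0.41 and not called (limma adjusted p = 0.192). Its MI prednisone libraries were the highest of the 12.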

How the data were processed

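Values are TPM per transcript, deposited by the authors as 1 table of 105129 rows for 12 libraries, each summing to 1000000. The submitters' processing notes name Trimmomatic, HISAT2, kallisto and the mm10 build, and the labels' protocols a stranded mRNA kit; versions, roles and the annotation release are not given in the sources used here. TPM keeps no depth, so no counting error could be given and precision rests on 3 mice per group. Near-identical copies (Hspa1a and Hspa1b, and genes with pseudogenes such as Hspd1, Hspe1 and Hspa8) share reads. Samples were grouped by title.

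Rows sharing a symbol were added up. The 13158 symbols that reached 1 TPM in 3 or more libraries entered limma (version 3.58.1, under R 4.3.3) on log2(TPM + 1). That scale understates changes of low genes. The fit used lmFit and eBayes with a trend of the variance on mean expression, and 1 mean per group over all 12 libraries. P-values were adjusted by Benjamini-Hochberg over all genes within a comparison and called under 0.05. The method was tested on simulated data with independent normal noise. Those data held no shift of library scale and no length trend, so the effect of these on the calls was not tested there. Ratios were tested by exact permutation in Python 3.11.15. Transcript types, lengths (90.4% of genes) and positions came from GENCODE release 21 for the mouse. Named genes were 42 chosen by role plus, in each comparison, up to 5 called rises and 5 falls of largest size with a mean of at least 5 TPM; other chaperones named singly were chosen after their values were seen. The members and lists were chosen with earlier results of these data known.

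Alternatives were median-ratio rescaling, no filter, a pseudocount of 0.1, the replicate number as a block, only the groups compared, a loess (span 0.5) correction for length alone or with the block, leaving out each mouse and, added after the data were seen, protein-coding rows only and centring without a length curve. Same-numbered mice of different groups did not deviate together (mean correlation -0.37, -0.05, -0.25 and 0.00 in the 4 pairs of groups).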

Additional observations from a re-analysis of the deposited data

Results flagged for a closer look

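The prednisone effect differed between infarcted and sham hearts for 20 chaperones by limma's interaction test as deposited (adjusted p under 0.05, 20.7% of all genes were lower in this test). The log2 interactions were -1.46 for Hspa4l, -1.24 for Hspa13, -1.16 for Dnajc5, -1.14 for Dnaja2, -1.09 for Dnajc3, -1.01 for Dnajc10, -0.96 for Dnajc14, -0.92 for Dnajc1, -0.88 for Dnajb4, -0.83 for Dnajb9, -0.80 for Dnajb12, -0.78 for Dnajc16, -0.78 for Dnajc28, -0.72 for Dnajc27, -0.70 for Hspa4, -0.64 for Hspa12a, -0.59 for Hsp90ab1, -0.57 for Hspa5, -0.56 for Hspd1 and -0.54 for Hspbp1. In all 20 the effect was more negative in infarcted hearts, and 9 of the genes, Hspa5 among them, belong to the endoplasmic reticulum group. In the same test 5 of 6 fibroblast markers (median -1.33), 3 of 5 macrophage and 3 of 5 endothelial markers were called lower, and their part in the chaperone results was not tested.

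After median-ratio rescaling 4 of the 20 passed: Hspa4l at -0.95 (limma adjusted p = 0.0269), Hspa13 at -0.79 (0.0257), Dnajc5 at -0.64 (0.0378) and Dnajc10 at -0.49 (0.0487). Hspa5, Hspd1, Hspbp1 and Hsp90ab1 were at -0.02, -0.01, -0.02 and -0.04 on that scale, where the interaction of the median gene has been removed.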

How the results depend on the processing

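Counts of called chaperones depended on scale, length and single mice. For infarction in vehicle hearts, 12 were called, and 3 after rescaling, 3 without a filter, 3 with the replicate block, 0 with only these groups, 2 after length correction, 0 after that with the block, 1 after centring, and 0 to 30 leaving out 1 mouse. For infarction under prednisone, 12 were called, 5 after length correction with the block, and 6 to 19 leaving out 1 mouse. For prednisone in MI, 22 were called, 5 with only these groups, 14 after length correction, 6 after that with the block, and 14 to 27 leaving out 1 mouse (14 without MI prednisone replicate 1). For the interaction, 20 were called, 9 after rescaling, 12 without a filter, 17 with the replicate block, 0 after length correction alone or with the block, 5 after centring, and 4 to 34 leaving out 1 mouse. The replicate block gave 12, 22 and 0 for the other 3 comparisons. Prednisone in sham hearts gave 0 under all settings run.

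These signs turned among chaperones called as deposited, and for Hsp90b1, which was called after rescaling. Hspb8 in MI against sham vehicle was -0.10 after rescaling, -0.08 after length correction alone or with the block, and -0.07 after centring. With prednisone in MI, Hspa4 was 0.12 and Hspb7 0.02 after length correction alone or with the block, Dnajc16 0.18 after length correction (-0.50 as deposited), Hsp90b1 0.31 after rescaling and 0.34 after length correction, Hspd1 0.14, 0.10, 0.10 and 0.11 and Dnaja3 0.09, 0.10, 0.10 and 0.06 after rescaling, length correction, that with the block, and centring. The interaction of Dnajc27 was 0.01 after length correction alone or with the block, and that of Dnajc16 0.01 after length correction. Of 55 called changes of named genes, 55 held with a pseudocount of 0.1, 42 with the block, 19 after rescaling and, of 49 with a length, 14 after length correction. The causes were not tested. Depth is unknown, so low genes such as Hspa1a carry an error that cannot be given.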
